A study of Homo sapiens with 16 samples.

Results

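Laminin receptors were followed at the level of chromatin after siRNA against ITGA7, itself a laminin receptor gene, in the established cell lines Cal33 and SAS, both HPV-negative squamous carcinomas of the head and neck. The genes were ITGA7, ITGA6, ITGA3, ITGB1, ITGB4 and BCAM, and their peaks of accessible chromatin were all those whose nearest annotated start, or whose annotated gene, carried the Ensembl identifier of 1 of them. This gave 30 of the 164980 peaks of the study: 4 of ITGA7, 6 of ITGA6, 6 of ITGA3, 5 of ITGB1, 8 of ITGB4 and 1 of BCAM. ATAC-seq, in which a transposase cuts and tags open DNA, was run on 4 groups of 4 biological replicates: Cal33 siITGA7, Cal33 siControl, SAS siITGA7 and SAS siControl, where siControl is a non-targeting siRNA. All 16 cultures were embedded in an extracellular matrix rich in laminin 24 h after transfection, and nuclei were taken at 48 h, so the controls met laminin too. The labels describe the siRNA as a pool in a protocol text that speaks of RNA work, so that detail is not certain for these cultures. The question was whether chromatin at other laminin receptors opened after siITGA7.

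Laminins are the main adhesive proteins of basement membranes. An integrin is a pair of an alpha and a beta chain: the products of ITGA3, ITGA6 and ITGA7 each pair with that of ITGB1, and the product of ITGA6 also pairs with that of ITGB4 in hemidesmosomes, which fasten epithelial cells to the membrane beneath them. BCAM is no integrin but a membrane glycoprotein of the immunoglobulin superfamily, which binds laminins that hold the LAMA5 chain. ITGA7 is best known from skeletal muscle, while ITGA3, ITGA6 and ITGB4 are the usual laminin receptors of squamous epithelium.

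Of the 30 peaks, that of BCAM passed the test. It was higher in siITGA7 than in siControl libraries in both lines, 1.62-fold in Cal33 and 1.45-fold in SAS, and it was the 1 peak of 17 tested in each line that passed, where 9.19% of all tested peaks passed in Cal33 and 7.03% in SAS. A share of 1 in 17 is near these backgrounds, and in SAS the call was lost in 2 of 16 alternatives. ITGA7 itself, its partner ITGB1, and ITGA3, ITGA6 and ITGB4 had no peak past the threshold, though a peak inside ITGA6 with the identifier of another gene, outside the 30, was higher in Cal33. The main peak of ITGB1 had lower means after siITGA7 in both lines, without passing the test.

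The peaks were uneven in size and place. Annotated classes were 12 promoter, 15 intron, 2 transcription end and 1 intergenic peak, and lengths ran from 185 to 4224 bp with a median of 665.5 bp, against 537 bp over all peaks. Of the 30, 12 met both parts of the rule, 15 the annotated gene alone and 3 the nearest start alone. The RefSeq starts of ITGA7, ITGA3, ITGB1, ITGB4 and BCAM each lay in 1 of the 30 peaks, called the start peak of the gene here. The start of ITGA6 lay in a peak with another identifier (chr2:172427137-172429898, GRCh38), which is given beside the 30 and was added after the files had been seen. The ITGA7 start peak (chr12:55715815-55718019) also covers the start of BLOC1S1, a gene of lysosome-related organelles, so accessibility of these genes cannot be told apart there. The ITGA3 start peak (chr17:50055089-50057586) had the non-coding gene PICART1 as its nearest start. The ITGB4 start peak (chr17:75720762-75723694) was annotated as intronic and the BCAM peak (chr19:44806768-44809106) as intergenic, though both cover a RefSeq start. The ITGB1 start peak was at chr10:32957416-32958935. The ITGB4 peaks at chr17:75758305-75758753 and chr17:75758835-75760219 lie behind that gene and are annotated to GALK1, with ITGB4 as the nearest start.

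**Figure D1:**
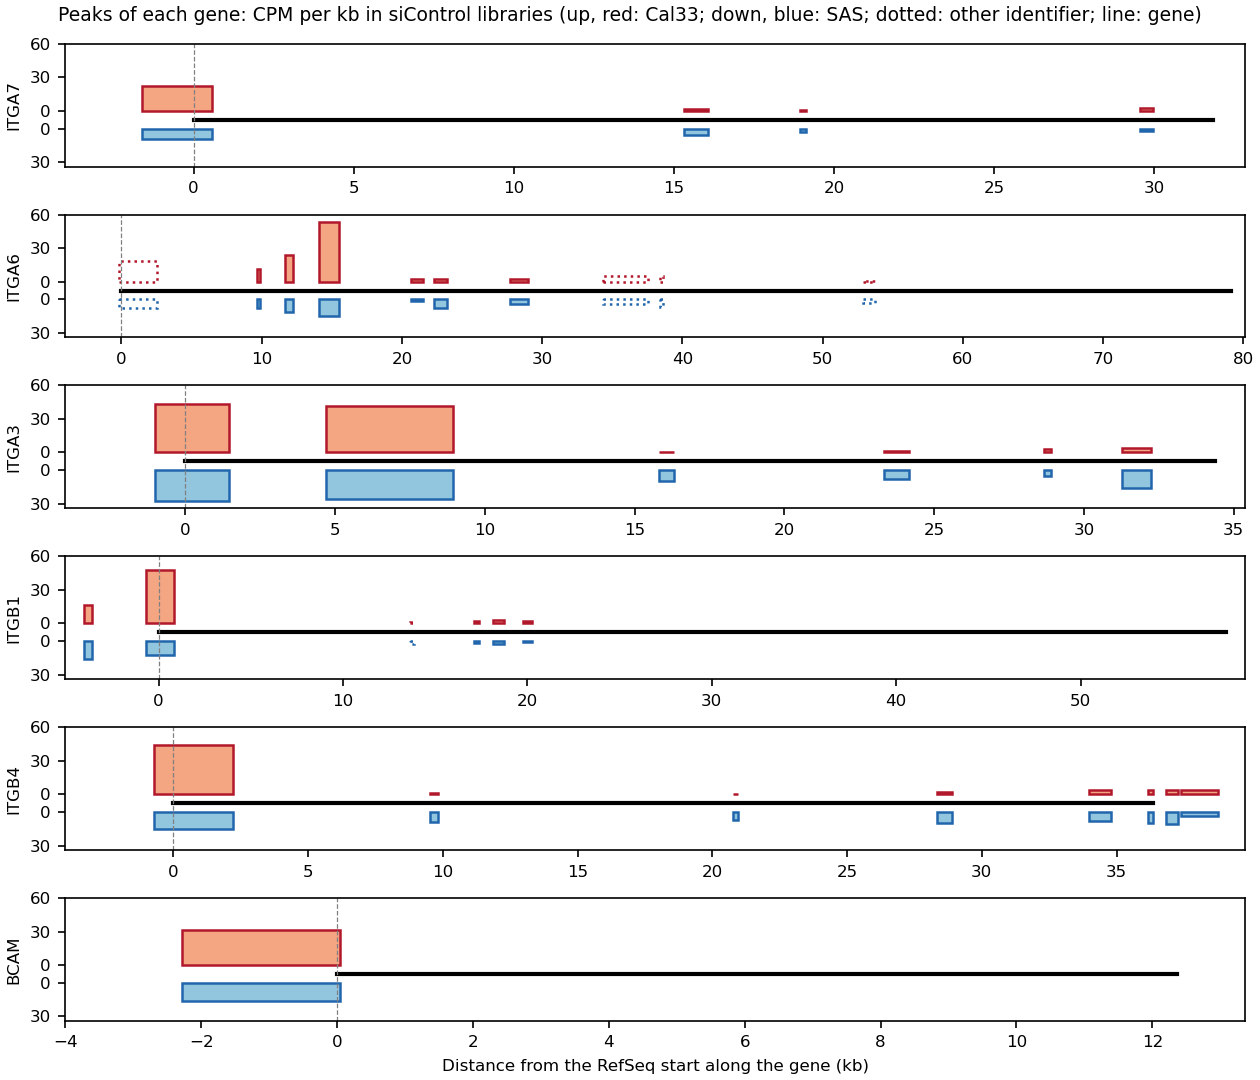
Peaks of the 6 genes by distance from the RefSeq start along the gene (kb, horizontal axis) and mean CPM (counts scaled to the library's effective total) per kb of peak in siControl libraries (vertical axis, n = 4 per line; Cal33 upward, SAS downward). The black line is the gene and dotted bars are peaks under another identifier. The tallest peak in Cal33 is the ITGA6 peak 14.1 to 15.5 kb downstream. Next come the start peaks of ITGB1, ITGB4 and ITGA3, then the ITGA3 peak 4.70 to 8.92 kb downstream and the BCAM start peak. The ITGA6 peak 11.6 to 12.2 kb downstream is taller than the start peaks of ITGA7 and ITGA6. ITGA3 and ITGB4 hold downstream peaks that are weak in Cal33 and taller in SAS.

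RefSeq promoter windows of GRCh38.p14, from 250 bases before to 50 after a start, were at hand for BCAM, ITGB1 and ITGA6, with 2 annotated starts for each gene, and for each the window with most bases inside the start peak is shown, because BCAM is the gene that changed and ITGB1 and ITGA6 are 2 receptor chains that did not pass. Capitals mark GGGCGG (GC box) and GGAATG (core of TEAD sites) on either strand. The BCAM window is chr19:44808809-44809108 on the plus strand, with 298 of its 300 bases inside the peak. The ITGB1 window is chr10:32958181-32958480 on the minus strand and the ITGA6 window chr2:172427336-172427635 on the plus strand, both wholly inside their peaks. The ITGA6 window shown is not that of the start at which the start peak was placed, whose window, chr2:172427086-172427385, has 249 bases inside the peak.
BCAM: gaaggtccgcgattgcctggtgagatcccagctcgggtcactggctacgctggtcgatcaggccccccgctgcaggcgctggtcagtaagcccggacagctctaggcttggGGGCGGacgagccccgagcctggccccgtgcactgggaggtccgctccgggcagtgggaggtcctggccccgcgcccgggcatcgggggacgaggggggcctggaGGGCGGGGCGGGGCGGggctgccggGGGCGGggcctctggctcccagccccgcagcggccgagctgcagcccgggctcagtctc
ITGB1: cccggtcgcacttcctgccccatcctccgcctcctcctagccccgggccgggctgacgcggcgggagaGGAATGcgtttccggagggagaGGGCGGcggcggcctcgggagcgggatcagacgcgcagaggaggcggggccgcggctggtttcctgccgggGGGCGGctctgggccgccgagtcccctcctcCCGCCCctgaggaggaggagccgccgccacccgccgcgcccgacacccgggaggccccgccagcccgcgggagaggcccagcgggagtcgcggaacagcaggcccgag
ITGA6: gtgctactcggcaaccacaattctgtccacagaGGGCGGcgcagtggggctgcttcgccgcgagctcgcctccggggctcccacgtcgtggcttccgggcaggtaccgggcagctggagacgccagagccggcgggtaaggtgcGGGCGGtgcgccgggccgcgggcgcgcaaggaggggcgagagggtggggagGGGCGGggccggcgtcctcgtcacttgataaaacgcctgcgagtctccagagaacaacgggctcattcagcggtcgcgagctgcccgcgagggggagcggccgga

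The 3 windows shown had a G and C content of 76% for BCAM, 78.3% for ITGB1 and 72% for ITGA6. BCAM held 5 GC boxes, of which 3 overlap at their ends, and ITGB1 and ITGA6 held 3 each. A GC box was present in 45.0% of 35116 RefSeq promoter windows. The TEAD core occurred once, in the ITGB1 window, and is present in 14.03% of all windows. AP-1 (TGANTCA, 7.71% of windows), the CCAAT box (CCAAT, 34.6%) and the TATA box (TATAAA, 11.5%) had no match in the 3 windows shown on either strand. The E-box (CANNTG, 68.7%) matched at 2 places in the ITGA6 window, which are not in capitals, and at none in the other windows shown. The other ITGA6 window, with 249 bases inside the peak, differed: it had 53% G and C, 1 GC box, 7 E-boxes and 1 TATA box. The other BCAM window, with 254 bases inside its peak, had 78.3% G and C and 5 GC boxes, and the other ITGB1 window lies outside the start peak.

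Total counts in peaks were 8646532 to 13285086 in Cal33 siITGA7 and 3980563 to 8367079 in Cal33 siControl libraries, and 758590 to 1867047 in SAS siITGA7 and 1766033 to 4870187 in SAS siControl libraries. The totals were higher after siITGA7 in Cal33 (two-sided exact permutation p = 0.0286) and had a lower mean after it in SAS (p = 0.0571). Peaks of promoter class took 41.02% ± 0.787 of counts in Cal33 siITGA7 against 44.3% ± 3.07 in Cal33 siControl libraries (SD, n = 4; two-sided exact permutation p = 0.114), and 30.1% ± 0.364 in SAS siITGA7 against 33.7% ± 0.422 in SAS siControl libraries (p = 0.0286, the lowest value possible with 4 and 4 libraries). Cal33 siControl replicate 3 was the lowest of its group with 40.4%, against 43.5% to 47.1% in the other 3. Cal33 siControl replicates 1 and 2, at 46.4% and 47.1%, had 2 sequencing runs, and replicates 3 and 4 had 1. Of the Cal33 siITGA7 libraries, replicate 4, at 42.1%, had 2 runs and the rest 1. Across the tested promoter peaks the median log2 change was -0.12 in Cal33 and -0.14 in SAS, and 9.93% and 7.28% of them were lower. Of the squamous markers, the KRT14 promoter peak had means of 26.9 and 22.4 CPM in Cal33 siITGA7 and siControl and of 20.4 and 17.6 in SAS siITGA7 and siControl, while that of DSG3 had 5.24 and 5.82 CPM in Cal33 siITGA7 and siControl and 3.33 and 3.86 in SAS siITGA7 and siControl. TP63 and CDH1 had no promoter-class peak. The marker genes of skeletal muscle and of blood matched by name (DES, MYOD1, MYOG, CKM, PTPRC and CD3E) had no promoter-class peak. Summed promoter peaks of 2 fibroblast markers ran from 45.7 to 49.8 CPM in Cal33 siITGA7, 41.6 to 63.9 in Cal33 siControl, 16.2 to 30.4 in SAS siITGA7 and 23.2 to 27.7 in SAS siControl libraries, nearly all of it at COL1A1, with PDGFRB at 0 to 5.08 CPM. Those of 2 endothelial markers, CDH5 and VWF, ran from 9.62 to 11.8, 13.0 to 17.5, 4.23 to 7.85 and 3.71 to 7.24 CPM in the same order of groups. Of the tested peaks of these 2 genes, 1 of 22 was higher and 1 lower in Cal33, both at CDH5, and 12 of 53 were higher and 0 lower in SAS, all at VWF, against 4.52% higher and 4.67% lower of all tested peaks in Cal33 and 4.04% higher and 2.99% lower in SAS. The part of depth, promoter share and these markers in the results was not tested.

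At ITGA7, the targeted gene, accessibility did not differ detectably. The start peak had 41.2, 43.7, 45.4 and 44.6 CPM in Cal33 siITGA7 libraries (replicates 1 to 4), against 53.9, 51.4, 38.5 and 48.4 in Cal33 siControl libraries. In SAS it had 20.6, 15.1, 13.4 and 15.2 CPM in siITGA7 libraries, against 17.0, 17.3, 21.5 and 23.7 in siControl libraries. The groups overlapped in both lines, and the siITGA7 libraries lay within the range of the siControl ones in Cal33. By the quasi-likelihood test of edgeR, with p-values adjusted over all tested peaks, the log2 change was -0.12 ± 0.12 in Cal33 (SE, n = 4 per group; adjusted p = 0.552) and -0.27 ± 0.18 in SAS (adjusted p = 0.395). Among the 5 Cal33 libraries of 1 sequencing run the log2 change had the opposite sign, 0.011. siRNA acts on the transcript, so these values are no check of the knockdown. The remaining ITGA7 peaks, inside the gene, held from 0 to 22 counts per library and stayed under the filter on low counts in both lines.

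BCAM rose in both lines. Its peak had 106, 123, 129.7 and 116 CPM in Cal33 siITGA7 libraries, against 69.7, 71.4, 64.4 and 88.5 in Cal33 siControl libraries. The lowest siITGA7 library was above the highest siControl library. In SAS it had 65.0, 48.9, 40.9 and 49.9 CPM in siITGA7 libraries, against 38.2, 37.1, 38.2 and 34.6 in siControl libraries, again without overlap but with siITGA7 replicate 3 close to the controls. These CPM rest on 832 to 1156 counts in Cal33 siITGA7 and 200 to 445 in Cal33 siControl libraries, and on only 58 to 108 in SAS siITGA7 and 75 to 206 in SAS siControl libraries.

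The log2 change of BCAM was 0.69 ± 0.13 in Cal33 (SE, n = 4 per group; edgeR adjusted p = 0.000679) and 0.54 ± 0.12 in SAS (adjusted p = 0.000944). In Cal33, BCAM was 1 higher and 0 lower among 17 tested peaks of the 6 genes, while 9.19% of the 75230 tested peaks were called, 4.52% higher and 4.67% lower. In SAS it was again 1 higher and 0 lower of 17, against 7.03% of 43600 tested peaks called, 4.04% higher and 2.99% lower. In the intergenic class, to which the BCAM peak belongs by annotation, 5.61% of tested peaks in Cal33 and 5.67% in SAS were higher. In the promoter class, given because the peak covers a RefSeq start, 1.73% in Cal33 and 1.42% in SAS were higher. Changes at least as large as that of BCAM were found at 3.97% of tested peaks in Cal33 and 7.96% in SAS. Of the 38393 peaks tested in both lines, 113 were higher in both, BCAM among them, which is 5.32% of the 2125 higher ones in Cal33 and 11.7% of the 965 in SAS. In Cal33 the call held in all 18 alternatives (log2 change 0.63 to 0.80, adjusted p 7.85e-07 to 0.00872). In SAS it held in 14 of 16 and was lost with no filter on low counts (0.34, adjusted p = 0.0968) and with all 16 libraries in 1 fit (0.44, adjusted p = 0.0759).

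**Figure D2:**
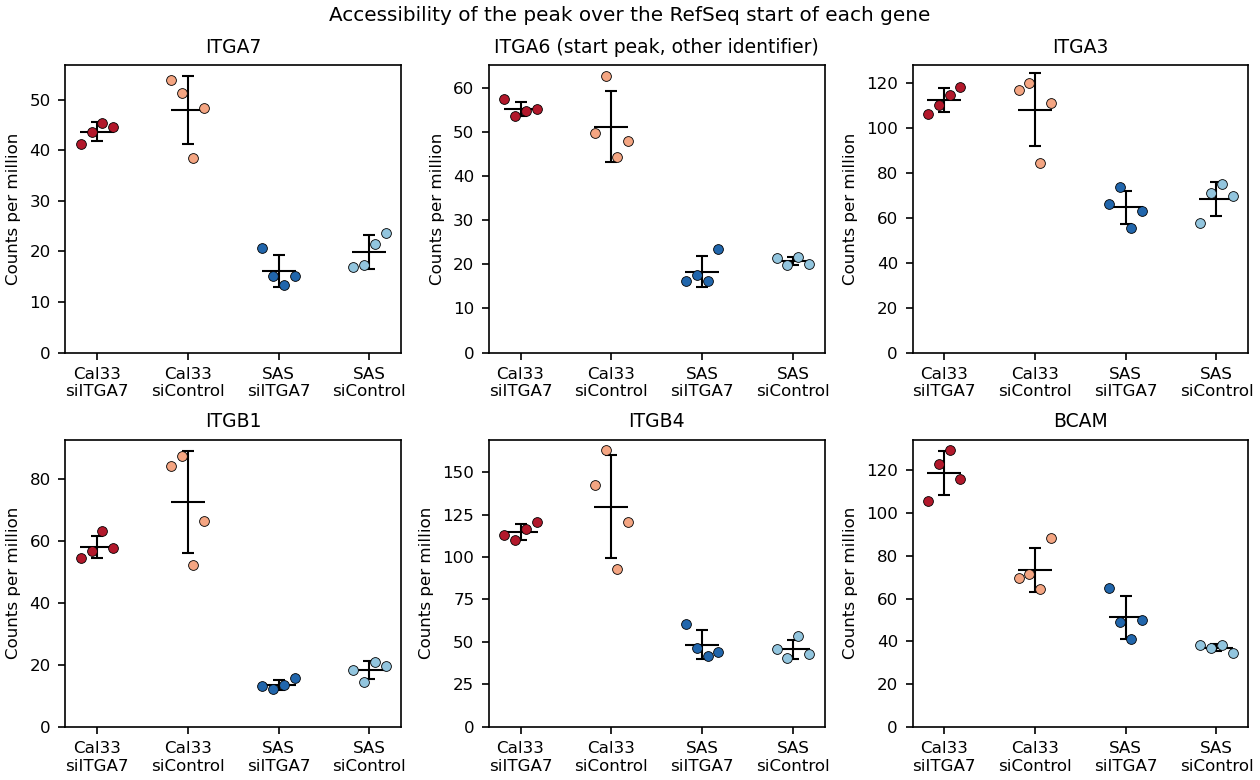
CPM of the start peak of each gene in the 16 libraries, 1 point per library, with the mean and SD of each group (n = 4, vertical axis from 0). The siITGA7 points lie above all siControl points of the same line at BCAM, and overlap with them at the other 5 genes.

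ITGB1, which encodes the common beta chain of the ITGA3, ITGA6 and ITGA7 receptors, went the other way without passing. Its start peak had 54.5, 56.8, 63.1 and 57.6 CPM in Cal33 siITGA7 libraries, against 84.0, 87.4, 52.3 and 66.4 in Cal33 siControl libraries. Cal33 siControl replicate 3, with the lowest promoter share of its group, was the lowest of the 8. Cal33 siControl replicates 1 and 2, at 84.0 and 87.4 CPM, had 2 sequencing runs, as had siITGA7 replicate 4 at 57.6 CPM. The rest had 1. The log2 change was -0.31 ± 0.13 (edgeR adjusted p = 0.141). Without Cal33 siControl replicate 3 it was -0.44 ± 0.10 (edgeR adjusted p = 0.000997), in a fit where 11346 of 79149 tested peaks were called. Among the 5 Cal33 libraries of 1 sequencing run the ITGB1 start peak was not called. In SAS the ITGB1 start peak had 13.0, 12.1, 13.4 and 15.7 CPM in siITGA7 libraries, against 18.2, 14.3, 21.0 and 19.8 in siControl libraries. The groups overlapped through 1 library of each, and the log2 change was -0.35 ± 0.18 (adjusted p = 0.256).

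ITGB4, the beta chain of hemidesmosomes, had no change past the threshold at its start peak. It had 113, 109.8, 116 and 121 CPM in Cal33 siITGA7 libraries, against 142, 163, 92.8 and 121 in Cal33 siControl libraries, where replicate 3 was again the lowest. Its SAS values were 60.7, 46.5, 41.6 and 44.3 CPM in siITGA7 libraries, against 45.7, 40.5, 53.6 and 42.8 in siControl libraries. The log2 change was -0.16 ± 0.14 in Cal33 (edgeR adjusted p = 0.496) and 0.12 ± 0.12 in SAS (adjusted p = 0.612). Without Cal33 siControl replicate 3 the Cal33 value was -0.30 ± 0.10 (adjusted p = 0.0313), and among the 5 Cal33 libraries of 1 sequencing run it was 0.091.

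ITGA3, the alpha chain of an epithelial receptor for the laminin of anchoring filaments, had the broadest of the 30 peaks and small changes. The start peak had 107, 110.2, 115 and 119 CPM in Cal33 siITGA7 libraries, against 117, 120.2, 84.4 and 111 in Cal33 siControl libraries, and 66.1, 73.7, 55.7 and 63.2 in SAS siITGA7 libraries, against 57.7, 71.2, 75.1 and 69.7 in SAS siControl libraries. A second promoter-class peak (chr17:50060811-50065034), 4.70 to 8.92 kb downstream, was the highest of the gene in CPM. It had 164, 192, 203 and 189 CPM in Cal33 siITGA7 libraries, against 194, 191, 136 and 180.4 in Cal33 siControl libraries. Its SAS values were 98.6, 107, 89.6 and 108 CPM in siITGA7 libraries, against 97.6, 116, 114 and 104 in siControl libraries. The groups overlapped at both peaks in both lines. Log2 changes in the fits of each line, whose scaling factors come from that line's libraries, lay between 0.02 and 0.10. The CPM use factors over all 16 libraries, and on that scale the SAS means were lower after siITGA7, at 64.7 and 101 CPM in siITGA7 against 68.4 and 108 in siControl libraries. No difference passed, and the edgeR adjusted p was 0.803 and 0.690 in Cal33 and 0.928 and 0.923 in SAS. The sign of these small values turned in several alternatives, among them Cal33 without siControl replicate 3 (-0.046 and -0.010).

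ITGA6, the alpha chain shared by hemidesmosomes and the ITGB1 receptors, carried its highest member peak in an intron (chr2:172441454-172442856). That peak had 72.9, 82.0, 83.6 and 74.7 CPM in Cal33 siITGA7 libraries, against 74.0, 68.1, 74.7 and 81.6 in Cal33 siControl libraries. In SAS it had 19.5, 20.5, 20.4 and 22.6 CPM in siITGA7 libraries, against 17.0, 22.2, 22.3 and 19.8 in siControl libraries. The log2 change was 0.07 ± 0.12 in Cal33 (edgeR adjusted p = 0.772) and 0.16 ± 0.16 in SAS (adjusted p = 0.615). The peak over the RefSeq start had 57.5, 53.6, 54.9 and 55.3 CPM in Cal33 siITGA7 libraries, against 49.8, 62.8, 44.3 and 48.0 in Cal33 siControl libraries, and a log2 change of 0.13 ± 0.12 (adjusted p = 0.530). In SAS it had 16.3, 17.5, 16.2 and 23.5 CPM in siITGA7 libraries, against 21.5, 19.8, 21.7 and 20.0 in siControl libraries, and a log2 change of -0.03 ± 0.16 (adjusted p = 0.949), whose sign turned in 3 alternatives.

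The remaining peaks, inside, upstream of or behind the genes, held at most 897 counts over the 16 libraries. The highest count was at an intronic ITGA6 peak (chr2:172438973-172439547), with 24.0 ± 3.60 CPM per kb in Cal33 siControl libraries. Of the 30 peaks, 10 passed the filter in neither line. Over the 17 tested peaks, log2 changes ran from -0.44 to 0.69 in Cal33 with a median of 0.08, against -0.01 over all tested peaks, and from -0.39 to 0.77 in SAS with a median of 0.03, against 0.01. Of them 11 were above 0 in Cal33 and 10 in SAS. An unadjusted edgeR p under 0.05 was found at 4 and 3. The share of all tested peaks at that looser threshold was not taken. It is at least the 9.19% in Cal33 and 7.03% in SAS that were called after adjustment, and the counts are not read as a result. The intronic ITGA6 peak farthest from the start (chr2:172455047-172456357) came nearest to a second call. It had 8.67, 5.44, 4.23 and 12.9 CPM in SAS siITGA7 libraries, against 5.49, 5.93, 5.38 and 4.20 in SAS siControl libraries, on 6 to 28 counts and 12 to 29 counts per library. The groups overlapped, and the log2 change was 0.77 ± 0.28 (edgeR adjusted p = 0.0713). It passed without SAS siITGA7 replicate 2 (0.93, adjusted p = 0.0480) or replicate 3 (0.95, adjusted p = 0.0280). In Cal33 its log2 change was 0.30 ± 0.23 (adjusted p = 0.449). In Cal33, siITGA7 and siControl values were fully separate at 3 of 17 tested peaks, all higher (2 of ITGA6 and BCAM), against 14.5% of all tested peaks. In SAS they were separate at 2 of 17, BCAM and a lower ITGA6 peak, against 13.6%.

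**Figure D3:**
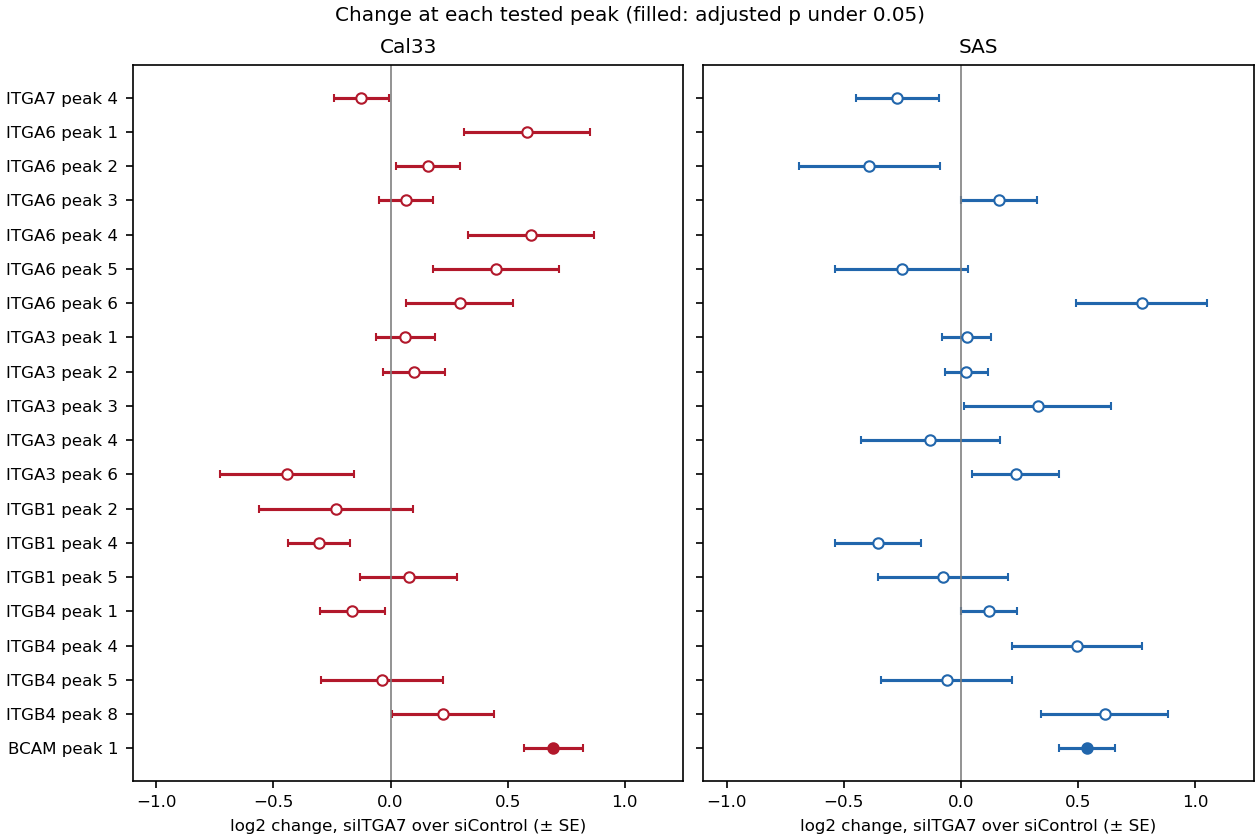
Log2 change with its SE (horizontal axis, siITGA7 over siControl) of the 20 peaks tested in at least 1 line, in Cal33 (left) and SAS (right); peaks are numbered by coordinate within a gene. Filled points have an edgeR adjusted p under 0.05, and the BCAM peak alone is filled, at 0.69 in Cal33 and 0.54 in SAS.

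The response of the lines was compared directly with the interaction contrast of a fit of all 16 libraries. For BCAM the difference between the Cal33 and the SAS change was 0.25 ± 0.18 on the log2 scale (edgeR adjusted p = 0.597), so a difference in response was not detectable. Of the 23 peaks tested for it, 0 passed, against 0.761% of 94918 peaks called. DESeq2 called 0 of the 23 too. An unadjusted edgeR p under 0.05 was found at 3 of them. The share of all peaks at that looser threshold was not taken, and the count is not read as a result. The differences ran from -1.19 at a weak peak behind ITGB4, annotated to GALK1, to 1.19 at a weak ITGA6 peak.

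Counts summed over all peaks of a gene gave the same call. With peaks summed by nearest start, BCAM, which has a single peak, had a log2 change of 0.72 ± 0.10 in Cal33 (edgeR adjusted p = 0.000297) and 0.50 ± 0.12 in SAS (adjusted p = 0.00131), and none of the sums of ITGA7, ITGA3, ITGB1 and ITGB4 passed. ITGA6 has no peak by nearest start. In that test 9.69% of sums were called in Cal33 and 9.53% in SAS. With peaks summed by annotated gene, or by nearest start for a peak with none, a way of summing added after the files had been seen, 11.0% and 9.17% were called, and BCAM was again the 1 call among all 6 genes in each line. The ITGA7 sum was then 45.7 ± 1.62 CPM in Cal33 siITGA7 and 50.1 ± 7.71 in Cal33 siControl libraries (SD, n = 4), and 21.4 ± 5.44 in SAS siITGA7 and 25.3 ± 2.73 in SAS siControl libraries. The ITGA6 sum was 108 ± 5.59 CPM in Cal33 siITGA7 and 99.0 ± 6.19 in Cal33 siControl libraries, with a log2 change of 0.15 ± 0.09 (adjusted p = 0.260). Without Cal33 siControl replicate 3, 3 of the nearest-start sums passed in Cal33, 1 higher and 2 lower. In that fit 7340 of all 37205 tested sums were called.

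The genes differed in how open their start peaks were. In CPM per kb of peak, the order in Cal33 siITGA7 libraries was BCAM (50.8 ± 4.35, SD, n = 4), ITGA3 (45.0 ± 2.10), ITGB4 (39.2 ± 1.60), ITGB1 (38.2 ± 2.41), ITGA6 (20.03 ± 0.595) and ITGA7 (19.8 ± 0.827). BCAM and ITGA3, ITGB4 and ITGB1, and ITGA6 and ITGA7 were neighbours whose libraries overlapped. In Cal33 siControl libraries ITGB1 (47.7 ± 10.7), ITGB4 (44.2 ± 10.3) and ITGA3 (43.4 ± 6.54) overlapped with each other. BCAM came next with 31.4 ± 4.44, overlapping ITGA3, and stood above ITGA7 (21.8 ± 3.05) and ITGA6 (18.5 ± 2.91), which overlapped. In SAS siITGA7 libraries ITGA3 was first with 25.9 ± 2.98, overlapping BCAM with 21.9 ± 4.31, which overlapped ITGB4 with 16.5 ± 2.90. ITGB1 (8.91 ± 1.01), ITGA7 (7.29 ± 1.42) and ITGA6 (6.66 ± 1.26) followed, each overlapping the next. In SAS siControl libraries ITGA3 (27.4 ± 3.01) stood above BCAM (15.8 ± 0.727) and ITGB4 (15.6 ± 1.95), which overlapped, and then came ITGB1 (12.1 ± 1.90), ITGA7 (9.01 ± 1.49) and ITGA6 (7.51 ± 0.358), each overlapping the next. ITGA7 was thus among the 2 lowest start peaks in each of the 4 groups.

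Without knockdown the lines differed at nearly all of these peaks. Between Cal33 siControl and SAS siControl libraries 17 of 19 tested peaks passed, 8 higher and 9 lower in Cal33, against 78.6% of 73404 tested peaks, 37.5% higher and 41.1% lower. The libraries of the lines did not overlap at 16 of the 19, against 70.9%. The start peaks were higher in Cal33: log2 1.75 ± 0.15 for ITGB1, 1.30 ± 0.15 for ITGB4, 1.06 ± 0.15 for ITGA7, 0.80 ± 0.14 for BCAM and 0.47 ± 0.14 for ITGA3 (edgeR adjusted p from 8.42e-16 to 0.00193), though ITGA3 turned to -0.047 (adjusted p = 0.674) with total counts as library size and to -0.27 (adjusted p = 0.0159) among peaks of at least 50 counts on average, where BCAM was at 0.07 (adjusted p = 0.595). The 9 lower peaks lay inside or behind ITGA3, ITGA7, ITGA6 and ITGB4 and were weak in Cal33 siControl libraries. In SAS siControl libraries they ran from 4.01 CPM per kb at an ITGA6 peak to 15.7 at an ITGA3 peak (chr17:50087386-50088336). The BCAM start peak had 15.8 there. The farthest difference was at another ITGA3 peak, -3.67 ± 0.41. At that peak Cal33 siControl libraries had 0.404 ± 0.160 CPM and SAS siControl libraries 4.97 ± 1.52 (SD, n = 4). Higher in Cal33 away from the starts were intronic ITGA6 peaks (1.70 ± 0.14 at chr2:172441454-172442856 and 0.86 ± 0.19 at chr2:172438973-172439547). So was the second ITGA3 peak, at 0.51 ± 0.14. Over all tested peaks the median difference was 0.44 for promoter-class peaks and -0.21 for intronic ones. Annotated class did not divide the peaks of the 6 genes in this way. Several of the lower ones, among them the ITGA3 peak at -3.67, are promoter class by annotation. With total counts the median over all tested peaks was -0.58, against -0.08 with TMM factors, and set against these medians the ITGA3 start peak was at 0.53 and 0.55. Among peaks of at least 50 counts on average the median was 0.02, and set against it ITGA3 was at -0.30 and BCAM at 0.04. Copy number of the loci was not analysed here.

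**Figure D4:**
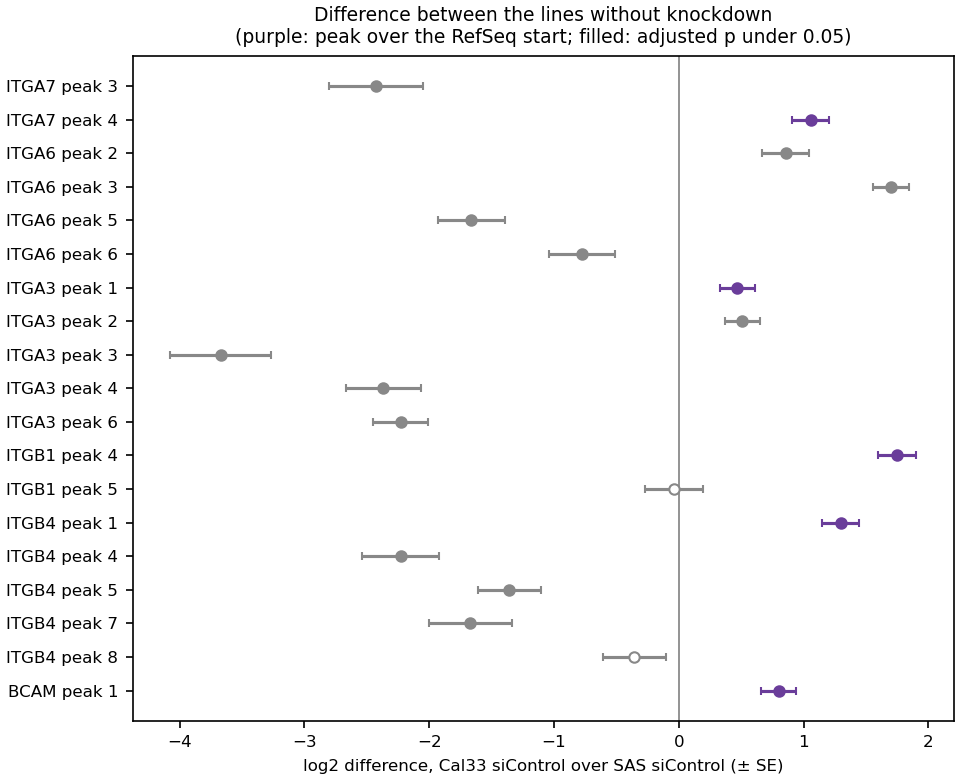
Log2 difference with its SE (horizontal axis, Cal33 siControl over SAS siControl, n = 4 each) of the 19 tested peaks. Purple start peaks lie right of 0, from 0.47 at ITGA3 to 1.75 at ITGB1, as do some intronic ITGA6 peaks and the second ITGA3 peak. Downstream peaks that are weak in Cal33 lie left of 0, as far as -3.67 at ITGA3.

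Genes around these receptors were read as 3 lists, to be set against the 4.52% higher and 4.67% lower of all tested peaks in Cal33 and the 4.04% higher and 2.99% lower in SAS. For laminin chains and hemidesmosome proteins, 7 of 116 tested peaks were higher and 2 lower in Cal33, and 2 of 77 were higher and 1 lower in SAS. The called peaks with the smallest p in Cal33 lay in introns of LAMA3, a chain of the epithelial laminin, with 54.0 ± 2.99 CPM in siITGA7 and 37.4 ± 5.25 in siControl libraries (log2 change 0.52 ± 0.12, edgeR adjusted p = 0.00489), and of LAMC1 (0.79 ± 0.18, adjusted p = 0.00579). In SAS they were an intronic peak of PLEC, the plakin that ties ITGB4 to keratin filaments, with 79.4 ± 5.68 CPM in siITGA7 and 62.2 ± 8.91 in siControl libraries (0.44 ± 0.10, adjusted p = 0.00153), and one in LAMA5, which encodes the chain that BCAM binds (-0.86 ± 0.26, adjusted p = 0.0265). Another intronic LAMA5 peak was higher in Cal33 (0.36 ± 0.11, adjusted p = 0.0401). For integrin partners and adaptors, 9 of 98 were higher and 1 lower in Cal33, and 1 of 73 was higher and 2 lower in SAS. They were led by PTK2, the focal adhesion kinase, in both lines, at different peaks (0.74 ± 0.15, adjusted p = 0.00176 in Cal33 and 1.53 ± 0.35, adjusted p = 0.00143 in SAS). LIMS1 (0.55 ± 0.12, adjusted p = 0.00400 in Cal33) and the promoter of FERMT1, a kindlin that activates integrins (-0.42 ± 0.13, adjusted p = 0.0262 in SAS), came next.

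The last list held integrin chains that were not among the genes followed here, whatever their ligand. In it, 7 of 76 tested peaks were higher and 1 lower in Cal33, and 0 of 35 were higher and 1 lower in SAS. The backgrounds were the same 4.52% and 4.67% in Cal33 and 4.04% and 2.99% in SAS. Intronic peaks of ITGA2, the alpha chain of a collagen receptor, led in Cal33 with 0.56 ± 0.15 (edgeR adjusted p = 0.0147) and 0.42 ± 0.11 (adjusted p = 0.0178). ITGAV, the alpha chain of vitronectin receptors, held the 1 SAS call, -0.53 ± 0.17 (adjusted p = 0.0407). The median log2 changes of the 3 lists were 0.06, 0.15 and 0.14 in Cal33 and 0.05, 0.06 and 0.07 in SAS.

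Some peaks close to the 6 genes under other identifiers were called. Inside the genes, 1 of 3 tested in Cal33 and 0 of 2 in SAS was called. It lay in ITGA6 (chr2:172461648-172464899), had the antisense gene ITGA6-AS1 as its nearest start and is named here after its values were seen. It had 24.9, 24.0, 29.4 and 28.4 CPM in Cal33 siITGA7 libraries, against 19.1, 16.4, 15.4 and 18.5 in Cal33 siControl libraries, without overlap (log2 change 0.62 ± 0.12, edgeR adjusted p = 0.00168). SAS showed 13.6 ± 1.64 CPM in siITGA7 and 12.8 ± 2.98 in siControl libraries (0.13 ± 0.20, adjusted p = 0.766). Within 25 kb of the genes, 0 of 18 tested peaks were higher and 1 lower in Cal33, and 2 of 17 were higher and 0 lower in SAS, against 4.52% higher and 4.67% lower of all tested peaks in Cal33 and 4.04% and 2.99% in SAS. The lower one was upstream of ITGB4 (chr17:75700333-75701113, -0.44 ± 0.13, edgeR adjusted p = 0.0248), and the higher ones were upstream of ITGB4 (chr17:75706878-75707690, 0.65 ± 0.17, adjusted p = 0.00664) and of ITGA3 (chr17:50036766-50038355, 0.72 ± 0.19, adjusted p = 0.00980). They too are named after their values were seen.

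Across the 16 libraries, with each line centred on its own mean, the genes whose summed log2 CPM by annotated gene was most like that of ITGA7 were RAB5IF (Pearson r = 0.93), RNF187 (0.92) and CALCOCO2 (0.91), among 18987 named genes. ITGB4 had 0.69, ITGB1 0.50, ITGA3 0.42, BCAM -0.08 and ITGA6 -0.12. By nearest start, where the ITGA7 sum lacks its start peak, the first were SPG21 (0.85), CYBC1 (0.85) and MIR4733HG (0.84). The points share their libraries, with their depth and promoter share, and the values are a description without a test.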

How the data were processed

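The authors deposited raw counts per peak and library for both lines over a common peak set, per the file headers, and all tests started from them. The normalized signal the authors deposited beside them is the count divided by 1 factor per library in all 16 libraries and was not used. Base calls were converted with bcl2fastq 2.20.0, and the genome build was hg38, also written GRCh38, per the submitters' processing notes. Aligner, peak caller, treatment of duplicates and any shift of reads for the transposase (not given in the sources used here) could each change a peak's count. Errors and p-values measure the spread between libraries. Ensembl identifiers, annotated classes and distances came from the deposited annotation, counted from 1; 34267 of 47963 identifiers received a RefSeq gene name (GRCh38.p14) by position (14866 of 16467 protein-coding ones, 90.3%).

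Tests used edgeR 4.0.16 (R 4.3.3; TMM factors, default filter on low counts, robust quasi-likelihood fit) on all peaks, with Benjamini-Hochberg adjustment over all tested peaks and a threshold of 0.05, and were tested on simulated data. CPM are counts scaled to the effective library size, with TMM factors over all 16 libraries. Depth and promoter share were compared with two-sided exact permutation over 70 arrangements. Alternatives used DESeq2 1.42.0, limma-voom (limma 3.58.1), other filters and scalings, thinning, left-out libraries and the batch number as a block. The labels give each replicate number as a batch, with the same batch names in all groups; deviations of same-numbered libraries from their group means had correlations of -0.14 to 0.0061 over peaks. Members, lists and the naming rule (the highest promoter-class peak of each gene, each called peak, and up to 2 called peaks per list and line) were chosen with earlier results of these data known. Start peaks, and the ITGA6 intron and weak peaks given per library, were added after the files had been seen. KRT5, ACTA1, DCN and PECAM1 of the marker lists were not analysed here.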

Additional observations from a re-analysis of the deposited data

How the results depend on the processing

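The call of BCAM held in each of 18 alternatives in Cal33 and in 14 of 16 in SAS; with the batch number as a block its log2 change was 0.70 (adjusted p = 0.00154) in Cal33 and 0.55 (adjusted p = 0.00149) in SAS, and the block changed no call or count of calls among the peaks or gene sums of the 6 genes. The number of their peaks called in Cal33, 1, became 2 with no filter or with all 16 libraries in 1 fit. The second was a weak peak behind ITGB4, annotated to GALK1, lower, at -1.37 and -1.38. The number became 0 by annotated gene alone, which leaves out BCAM, and 2 with peaks under other identifiers. In SAS, 1 became 0 with no filter, in the fit of all 16 and by annotated gene alone. Without 1 library each, the counts were 1 to 3 in Cal33, 1 to 2 in SAS, 0 to 0 for the interaction and 17 to 18 between the lines. For gene sums they were 1 to 3 in Cal33 and 1 to 1 in SAS. Both counts of 3 came without Cal33 siControl replicate 3, where 11346 of 79149 peaks and 7340 of 37205 sums were called. Gene sums over promoter-class peaks alone gave 0 in each line, without BCAM. Between the lines, 17 called peaks became 6 of 7 tested at 50 counts or more on average, where 16391 of all 22053 tested peaks were called. Differences in total counts ran from 3118706 to 4768624 in Cal33 and from -2668000 to -1633282 in SAS without 1 library each, those in promoter share from -4.65 to -2.42 and from -3.79 to -3.45 points. Signs turned for values near 0. In Cal33 they did for ITGA7 (0.011) and ITGB4 (0.091) among libraries of 1 sequencing run, and, without 1 library each, for the ITGA3 start (-0.046 to 0.12) and the second ITGA3 peak (-0.010 to 0.17), both lowest without siControl replicate 3. In SAS with no filter they did for ITGA3 (-0.17 and -0.17) and ITGB4 (-0.075), and in the fit of all 16 for ITGA3 (-0.080 and -0.088). They also did in SAS for the ITGA6 start at 50 counts (0.059). Without 1 SAS library, the ITGA3 start ran from -0.065 to 0.071, the second ITGA3 peak from -0.033 to 0.062 and the ITGA6 start from -0.20 to 0.020. Between the lines they did for ITGA3 with total counts (-0.047 and -0.0083) and at 50 counts (-0.27 and -0.24). Apart from the steps that leave out BCAM by construction, the cause was not tested. The filter on low counts left 17 of 30 peaks testable in each line, and in SAS BCAM rests on as few as 58 counts in a library.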
